A study of Mus musculus with 24 samples.

Results

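Open chromatin was examined at 9 genes of the Wnt pathway in mouse embryonic stem cells. Axin2, Rnf43, Znrf3, Nkd1 and Sp5 are targets of the pathway, and Tcf7, Tcf7l1, Tcf7l2 and Lef1 encode its DNA-binding factors. An interval of the authors' consensus peaks was a member when the gene of its nearest annotated transcription start site (TSS) was 1 of the 9. This gave 88 of 145143 intervals. Chromosome 11 holds 34 of them, with 9 named for Axin2, 3 for Rnf43, 18 for Znrf3 and 4 for Tcf7. The other 54 lie on chromosomes 19 (Tcf7l2, 42), 6 (Tcf7l1, 6), 2 (Sp5, 3), 8 (Nkd1, 2) and 3 (Lef1, 1). A filter on low counts passed 80 members, 30 on chromosome 11 and 50 elsewhere, and the 8 others, with means of 3.78 to 8.26 counts per library, were not tested.

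The assay was ATAC-seq: a transposase inserts adapters where DNA is open, so reads pile up at accessible sites. Accessibility is given as CPM, the count of an interval scaled to the TMM-adjusted size of its library. The study asked how induction of Firre, a long noncoding RNA from the X chromosome, changes chromatin over 150 min. The wild type (WT) control, the Firre KO (knockout) control and the KO Firre line, which carries a Firre inducible transgene on the knockout, each had 6 libraries, 1 each at 0, 30, 60, 90, 120 and 150 min. The WT Firre line, with the Firre inducible transgene in wild type cells, had 5; its library of 60 min was not analysed here. Every line received doxycycline, so the controls share the drug with the transgenic lines, and all cells were grown on gelatin with LIF, the MEK inhibitor PD0325901 and the GSK3 inhibitor CHIR99021. The number of clones behind a line, the transgene's promoter and what control lines carry in its place are not stated in the labels. Libraries of a line were therefore its replicates, and genotype and line cannot be told apart.

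In the Wnt pathway, secreted Wnt ligands bind Frizzled receptors and stop a destruction complex, built on Axin and containing GSK3, from marking beta-catenin for degradation. Beta-catenin then enters the nucleus and joins factors of the TCF and LEF family on target genes, among them genes whose products damp the signal. CHIR99021 blocks GSK3 and so activates the pathway. It is given to embryonic stem cells because relief of repression by TCF7L1 favours self-renewal, and all 4 lines received it. No line without the inhibitor was compared.

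To show what lies at the gene starts, 250 bases upstream of a RefSeq promoter entry's start (GRCm38.p6, plus strand) are printed for 2 genes on chromosome 11 whose start interval differed between the control lines, Axin2 and Rnf43, and for 2 on other chromosomes whose start interval did not pass the test, Tcf7l2 and Sp5. Capitals mark CTTTGAT or CTTTGTT on either strand (reversed, ATCAAAG or AACAAAG), letters of the TCF and LEF binding motif. They lie at chr11:108920099-108920348, chr11:87662837-87663086, chr19:55741560-55741809 and chr2:70474673-70474922.
Axin2: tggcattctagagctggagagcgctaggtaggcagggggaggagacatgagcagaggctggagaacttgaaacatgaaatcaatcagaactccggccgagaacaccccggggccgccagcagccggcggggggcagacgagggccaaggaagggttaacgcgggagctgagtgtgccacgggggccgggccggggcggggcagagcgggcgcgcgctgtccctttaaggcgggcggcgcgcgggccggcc
Rnf43: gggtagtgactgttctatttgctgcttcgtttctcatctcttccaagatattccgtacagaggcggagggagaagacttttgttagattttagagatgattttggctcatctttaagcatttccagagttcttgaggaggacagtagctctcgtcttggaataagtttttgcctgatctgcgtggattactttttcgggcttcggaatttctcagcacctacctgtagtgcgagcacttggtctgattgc
Tcf7l2: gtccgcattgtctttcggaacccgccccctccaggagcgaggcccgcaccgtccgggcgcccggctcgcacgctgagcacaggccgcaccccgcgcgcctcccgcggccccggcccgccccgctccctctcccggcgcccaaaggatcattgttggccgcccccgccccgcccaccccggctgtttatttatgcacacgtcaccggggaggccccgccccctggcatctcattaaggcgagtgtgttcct
Sp5: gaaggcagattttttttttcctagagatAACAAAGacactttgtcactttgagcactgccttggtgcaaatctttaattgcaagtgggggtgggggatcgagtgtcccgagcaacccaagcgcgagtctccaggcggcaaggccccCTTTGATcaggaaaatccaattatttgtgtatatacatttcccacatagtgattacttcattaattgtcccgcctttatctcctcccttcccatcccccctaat
In windows from 250 bases before to 50 after the start, 2 of 14 RefSeq promoters of these genes held the letters, against 9.33% of 32851 promoters. Sp5 held 2 matches, starting 222 and 104 bases upstream, and an internal promoter of Tcf7l2 without an interval held 1. The upstream stretches of Axin2 and Tcf7l2 hold 69.2% and 72.8% G and C, and those of Rnf43 and Sp5 44.4% and 46.0%. A match of letters is a description and not evidence of binding, and Znrf3 has no entry in the sequence table.

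Each library held between 5725518 and 14977148 counts over all peaks. The 20 intervals named for Firre held 92.7 ± 7.16 CPM in the WT control and 10.3 ± 2.89 CPM in the KO control (SD, n = 6 each), 129 ± 9.75 CPM in the WT Firre line (n = 5) and 23.3 ± 4.06 CPM in the KO Firre line (n = 6). Both knockout lines were thus far below both wild type lines. Stem cell identity was checked at the promoters of 9 embryonic stem cell markers, such as Pou5f1, Sox2 and Nanog. All 9 were measured, with a median of 16.1 CPM per kb, against 5.84 for 6 of 8 fibroblast markers, 6.81 for 4 of 5 primitive endoderm markers and 8.68 for 4 of 5 trophoblast markers. Single markers overlapped between the lists. Nanog, the lowest stem cell marker, held 9.64 CPM per kb and Sox2 14.5. Pdgfra, in both the fibroblast and the endoderm list, held 15.1, and the trophoblast marker Tfap2c 11.6. Summed per library, the stem cell markers ran from 141 to 151 CPM per kb in the WT control and from 149 to 191 in the KO control, and the fibroblast markers from 44.2 to 52.3 and from 44.5 to 52.9. Promoter peaks took 39.0 ± 0.59% of counts in the WT control, 40.8 ± 2.06% in the WT Firre line, 42.1 ± 0.96% in the KO control and 41.8 ± 0.55% in the KO Firre line. Peaks of chromosome 11 were on the whole higher in the KO than in the WT control, with a median log2 difference of 0.14 over its 9899 tested peaks and -0.04 over 119616 peaks elsewhere. The part of this shift and of the promoter share in the results below was not tested, and both are given beside them.

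Between the control lines, 8 of 80 members differed at an edgeR adjusted p of 0.05 or less. Of these, 6 were higher in the KO control and 2 were lower. Over all 129515 tested peaks 7.97% were called, 5.50% as higher. On chromosome 11 the share was 5 of 30 members against 17.0% of all its peaks, and elsewhere 3 of 50 against 7.22%. By count, then, the members were near their chromosome's background in both cases. The median log2 difference was 0.17 for the 30 members on chromosome 11 and -0.06 for the 50 others, as the plot of differences by gene shows.

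**Figure D1:**
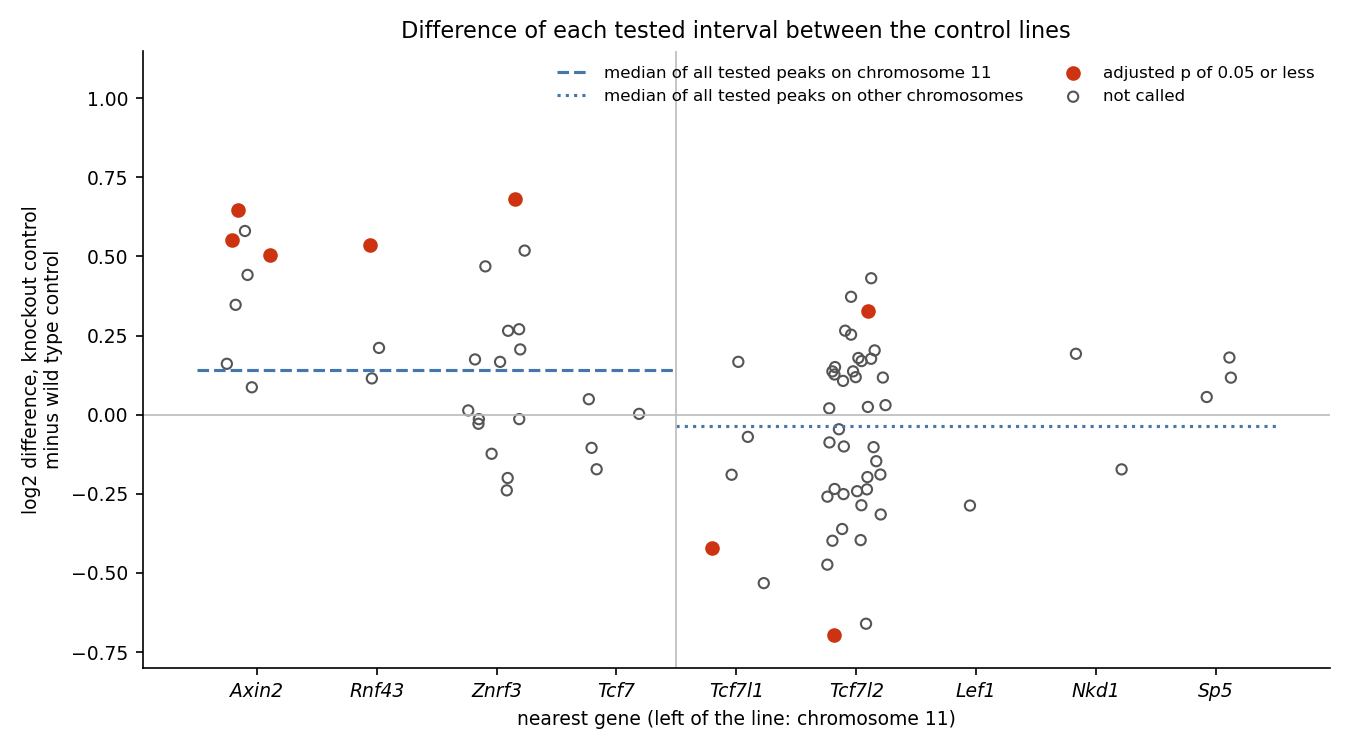
Log2 difference between KO control and WT control (vertical axis) of each of the 80 tested intervals, grouped by gene (horizontal axis); filled points passed an adjusted p of 0.05. All 8 Axin2 intervals lie above 0, and the dashed and dotted lines mark the medians of all tested peaks, 0.14 on chromosome 11 and -0.04 elsewhere.

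Axin2 encodes a scaffold of the destruction complex and is a widely used readout of Wnt signalling, since beta-catenin induces it and its product limits the signal. Its promoter interval (chr11:108920049-108921970, mm10) had 36.1 to 45.0 CPM in the WT control with a median of 39.9. The KO control had 53.8 to 72.7 CPM with a median of 61.6. The 5 libraries of the WT Firre line had 42.8, 40.5, 42.2, 42.7 and 54.4 CPM at 0, 30, 90, 120 and 150 min, and the KO Firre line had 44.7 to 56.9 CPM with a median of 52.2. All 6 KO control libraries were thus above all 6 of the WT control, while the KO Firre line overlapped both. The KO control was higher by 0.65 ± 0.08 on the log2 scale (SE), 1.57-fold (edgeR adjusted p = 1.32e-08). This difference ranked 17 among 1664 promoter peaks on chromosome 11, whose median was 0.26.

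Among the members, an intergenic interval 10315 bp upstream of the Axin2 TSS (chr11:108909478-108912565) gave the clearest separation of the KO control from the other 3 lines. It had 22.5 to 26.7 CPM in the WT control (median 24.7) and 33.5 to 39.3 CPM in the KO control (median 36.2). The WT Firre line had 28.2, 28.2, 23.9, 29.8 and 23.8 CPM in order of time, and the KO Firre line had 26.1 to 30.0 CPM (median 27.8). No library of the other lines reached the lowest KO control library. The share of all tested peaks set apart in this way is not given here, so this is no trait of the interval. The log2 difference between the control lines was 0.55 ± 0.08, 1.47-fold (edgeR adjusted p = 8.61e-07), rank 352 of 9899 peaks on chromosome 11. A weaker intergenic interval 32322 bp upstream (chr11:108888189-108889839) had 7.09 to 10.1 CPM in the WT control and 10.7 to 15.2 CPM in the KO control, without overlap, a difference of 0.51 ± 0.11 (edgeR adjusted p = 0.000474).

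The other 5 tested Axin2 intervals were weaker, at 1.45 to 6.74 CPM, and did not pass, although their estimates were also above 0, from 0.09 to 0.58. The median over the 8 tested Axin2 intervals was 0.47. In a window of 250 kb to either side of the Axin2 promoter, 24 other tested intervals, named for 6 other genes, had a median of 0.16, with 3 called higher and 0 lower. Not all of them lie outside Axin2. Those 15.0, 21.0, 22.8 and 28.3 kb downstream, named for Gm11670, fall within its RefSeq bounds (108917828 to 108950783). Their estimates were 0.32, 0.26, 0.42 and 0.31, and the interval at 22.8 kb was among the 3 called. The plot of the Axin2 locus sets the 8 intervals beside the median of the chromosome.

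**Figure D2:**
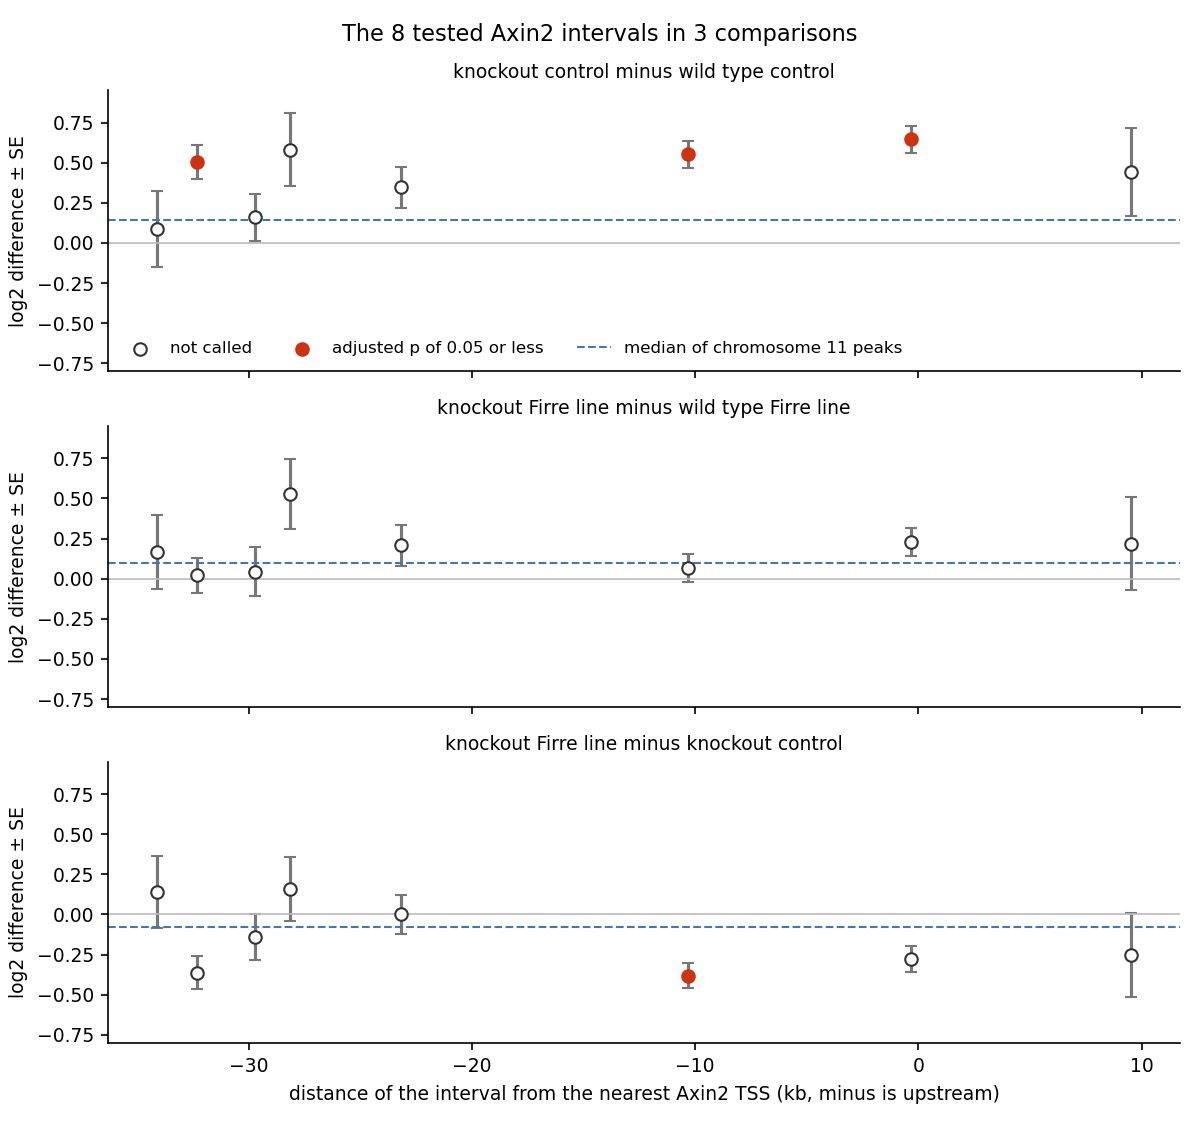
Log2 difference with its SE (vertical axis) of the 8 tested Axin2 intervals by distance from the nearest Axin2 TSS in kb (horizontal axis), in 3 comparisons; filled points passed an adjusted p of 0.05 and the dashed line is the median of chromosome 11. The intervals 32322, 10315 and 327 bp upstream are filled in the top panel, none in the middle one and the interval 10315 bp upstream in the bottom one.

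Rnf43 and Znrf3 encode related transmembrane ubiquitin ligases that remove Frizzled receptors from the cell surface, and both genes are themselves Wnt targets. The Rnf43 promoter interval (chr11:87662086-87663121) had 8.17 to 10.6 CPM in the WT control (median 9.43) and 10.2 to 18.5 CPM in the KO control (median 13.3). The WT Firre line had 9.43, 9.92, 8.87, 8.91 and 11.8 CPM in order of time, and the KO Firre line had 8.92 to 13.7 CPM (median 11.6). Only the lowest KO control library, that of 150 min, lay within the range of the WT control. The difference between the control lines was 0.54 ± 0.11, 1.45-fold (edgeR adjusted p = 0.000227), rank 82 of 1664 promoter peaks on the chromosome. The strongest intronic interval of Rnf43, 15101 bp from the TSS, had 8.97 ± 1.30 and 9.77 ± 0.89 CPM (SD, n = 6 each), a difference of 0.11 ± 0.11 that did not pass (edgeR adjusted p = 0.579).

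Of 15 tested Znrf3 intervals, 1 was called, in intron 1 of 3 and 30303 bp from the nearest annotated TSS (chr11:5411455-5412632). It had 7.74 to 10.5 CPM in the WT control (median 8.62) and 9.41 to 17.4 CPM in the KO control (median 14.9). The WT Firre line had 9.30, 7.57, 9.06, 9.18 and 8.92 CPM in order of time, and the KO Firre line had 10.2 to 17.6 CPM (median 12.4). The 2 knockout lines were above the WT Firre line in every library, and 5 of 6 KO control libraries were above the whole WT control. The log2 difference between the control lines was 0.68 ± 0.11, 1.61-fold (edgeR adjusted p = 3.56e-06), rank 96 of 9899 peaks on the chromosome. The other 14 tested Znrf3 intervals did not pass, and the median over the 15 was 0.17.

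The gene start of Znrf3 was not among the members, because the authors' table names the interval there for the noncoding gene Gm11962. Read as the RefSeq 5′ end of Znrf3 (chr11:5443628-5445541), it had 37.8 to 51.7 CPM in the WT control and 52.2 to 76.7 CPM in the KO control, without overlap, a difference of 0.49 ± 0.09 (edgeR adjusted p = 5.56e-05). The Firre lines overlapped there, with 44.5 to 76.5 CPM in the WT Firre line (median 51.5) and 45.6 to 61.2 CPM in the KO Firre line (median 56.2). The same naming left out the RefSeq 5′ ends of Tcf7, Tcf7l1, Lef1 and Nkd1, which carry the names A630014C17Rik, Gm37736, Lef1os1 and Gm45496. These 5 intervals are reported beside the members. For Axin2 no interval lies at the outermost RefSeq gene start (chromosome 11, 108917828), and its promoter interval covers the start of a RefSeq promoter entry inside these gene bounds.

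**Figure D3:**
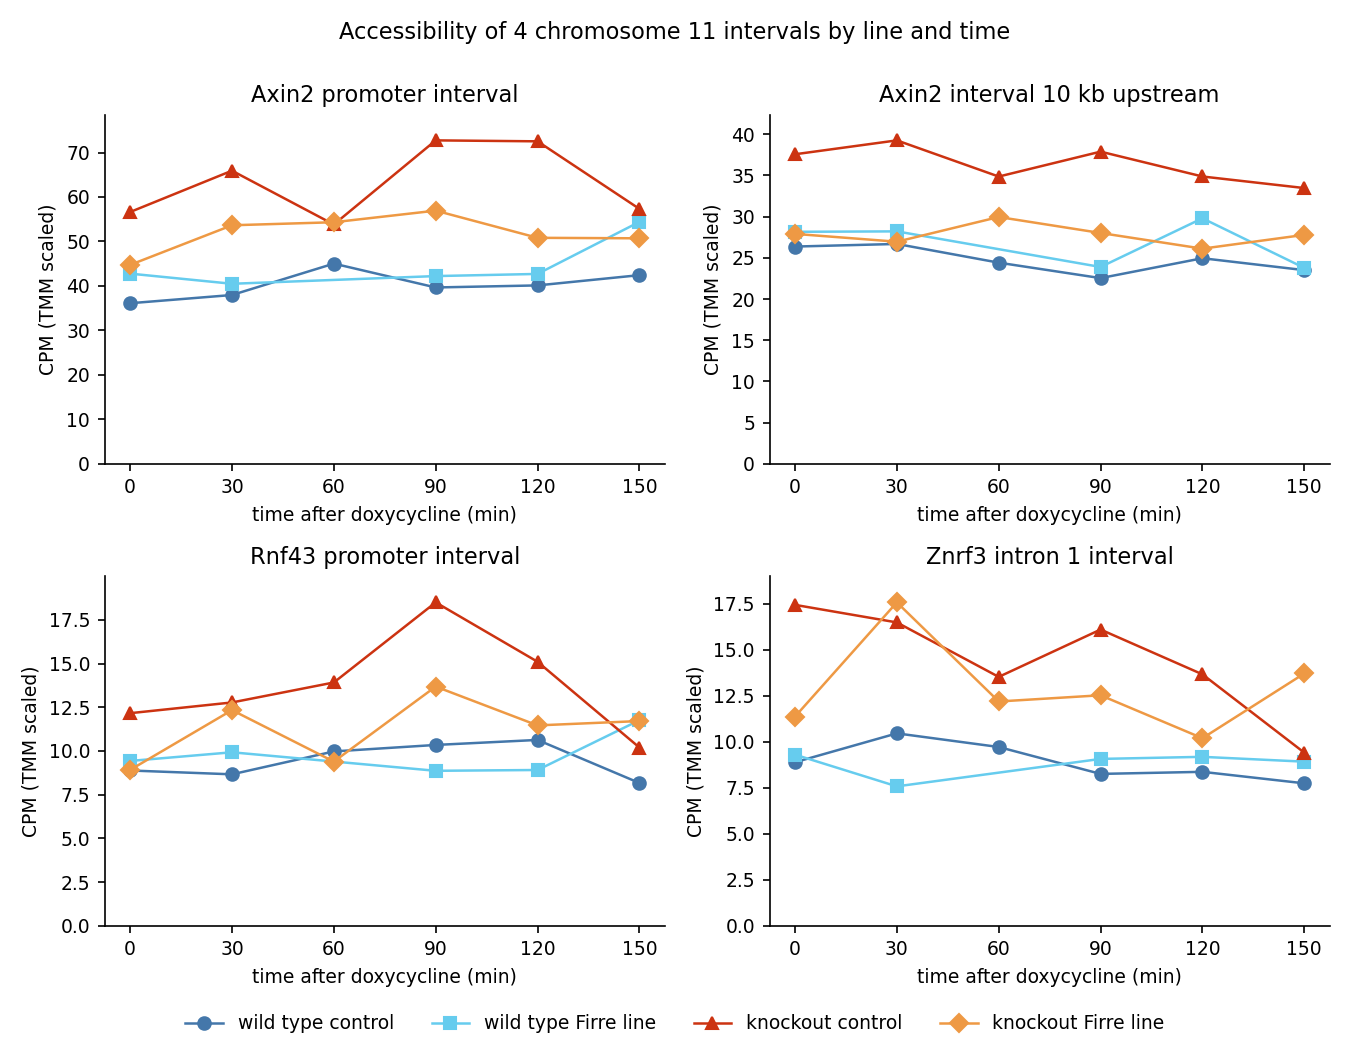
CPM (vertical axis, from 0) against minutes after doxycycline (horizontal axis) in the 4 lines, 1 library per point, for the 4 strongest intervals of chromosome 11 that were called between the control lines. The KO control is above the WT control at every time in all 4 panels, and at the Axin2 interval 10 kb upstream its lowest library, 33.5 CPM, is above all libraries of the other lines.

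Tcf7, the remaining gene on chromosome 11, encodes TCF1, a beta-catenin partner. None of its 4 intervals was called. The interval called its promoter, 478 bp from an annotated TSS within the gene, had 8.95 ± 0.87 CPM in the WT control and 9.0 ± 1.21 CPM in the KO control (SD, n = 6 each), a difference of 0.00 ± 0.11 with a 95% interval from -0.21 to 0.22. Its strongest intronic interval had 10.8 ± 1.49 and 9.94 ± 1.88 CPM, a difference of -0.10 ± 0.11, and the median over the 4 was -0.05. At the RefSeq 5′ end of Tcf7 the levels were 23.7 ± 1.87 and 27.8 ± 3.15 CPM, a difference of 0.21 ± 0.09 that did not pass (edgeR adjusted p = 0.139).

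On the other chromosomes no promoter or gene start was called. Nkd1 encodes an inhibitor that binds Dishevelled. Its RefSeq 5′ end had 19.8 to 27.1 CPM in the WT control and 22.0 to 29.9 CPM in the KO control, overlapping, a difference of 0.23 ± 0.09 (edgeR adjusted p = 0.0934). Its stronger member, 21448 bp from the TSS and intergenic, had 7.15 ± 0.63 and 8.21 ± 0.85 CPM, a difference of 0.19 ± 0.12 (edgeR adjusted p = 0.328). Sp5 encodes a zinc finger factor induced by Wnt signals. The broad interval over its start and body (chr2:70474440-70477728), which contains the 2 motif matches shown above, had 31.1 ± 1.78 CPM in the WT control, 35.4 ± 3.86 in the KO control and 33.4 ± 1.97 in the KO Firre line (SD, n = 6 each), and 32.3 ± 2.67 in the WT Firre line (n = 5). The lines overlapped, and the difference between the controls was 0.18 ± 0.08, with a 95% interval from 0.02 to 0.34 (edgeR adjusted p = 0.179).

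Tcf7l2 encodes TCF4, and its 42 intervals are the largest group. Names can mislead here: by RefSeq, 16 of the 42 lie in the neighbouring gene Vti1a, which encodes a SNARE of vesicle transport, 16 in no coding gene and 10 in Tcf7l2 itself. The promoter interval (chr19:55741131-55744326) had 29.3 to 31.6 CPM in the WT control and 32.3 to 37.8 CPM in the KO control, ranges that do not overlap. The difference was small, 0.18 ± 0.08, and was not called (edgeR adjusted p = 0.175). The strongest distal interval, 153002 bp upstream in an intron of Vti1a, had 23.2 ± 2.14 and 25.6 ± 2.76 CPM (SD, n = 6 each), a difference of 0.14 ± 0.09 (edgeR adjusted p = 0.375).

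Of the 39 tested Tcf7l2 intervals, 2 were called, in opposite directions. The intergenic interval 23212 bp upstream (chr19:55718720-55719384) had 7.16 to 11.3 CPM in the WT control (median 8.45) and a median of 11.1 and a highest value of 12.4 CPM in the KO control, which was higher by 0.33 ± 0.11 (edgeR adjusted p = 0.046). A weak interval 115782 bp upstream, at the 3′ end of Vti1a (chr19:55626178-55626786), had 1.48 to 3.73 CPM and 1.22 to 2.28 CPM, and fell by 0.70 ± 0.23 in log2 units (edgeR adjusted p = 0.0382). Both pairs of ranges overlapped, and the median over the 39 was -0.05.

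Tcf7l1 encodes TCF3, the repressive family member of embryonic stem cells. Its RefSeq 5′ end was 1 of the most accessible intervals described here, with 58.0 ± 2.10 CPM in the WT control, 65.2 ± 6.12 in the KO control and 67.3 ± 5.53 in the KO Firre line (SD, n = 6 each), and 60.0 ± 6.34 in the WT Firre line (n = 5). The difference between the controls, 0.16 ± 0.08, did not pass (edgeR adjusted p = 0.218). Its strongest member, in intron 2 and 6735 bp from an annotated TSS, had 24.7 ± 1.96 and 27.7 ± 1.98 CPM (edgeR adjusted p = 0.241). Another interval of the same intron (chr6:72662950-72664637) had 4.44 to 10.5 CPM in the WT control (median 7.12) and 4.43 to 7.03 CPM in the KO control (median 4.92). It fell by 0.42 ± 0.14 in log2 units (edgeR adjusted p = 0.0378), with overlapping ranges. The member within 1000 bp of a Tcf7l1 TSS held a mean of 6.70 counts per library and was not tested.

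Lef1, which encodes the factor LEF1, had a single weak member with 1.39 ± 0.60 and 1.14 ± 0.41 CPM in the control lines (SD, n = 6 each). At its RefSeq 5′ end the WT control had 24.05 ± 1.61 CPM and the KO control 25.8 ± 2.53 CPM, a difference of 0.10 ± 0.09 (edgeR adjusted p = 0.546). The plot of the gene starts shows all 9 genes together. The control lines do not overlap at Axin2, Znrf3 and Tcf7l2, and 1 knockout library lies inside the wild type range at Rnf43. The share of all promoter peaks without overlap is not given here, so this is no trait of these genes. Between the control lines 43.1% of all promoter peaks on chromosome 11 and 15.7% of those elsewhere were called by edgeR.

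**Figure D4:**
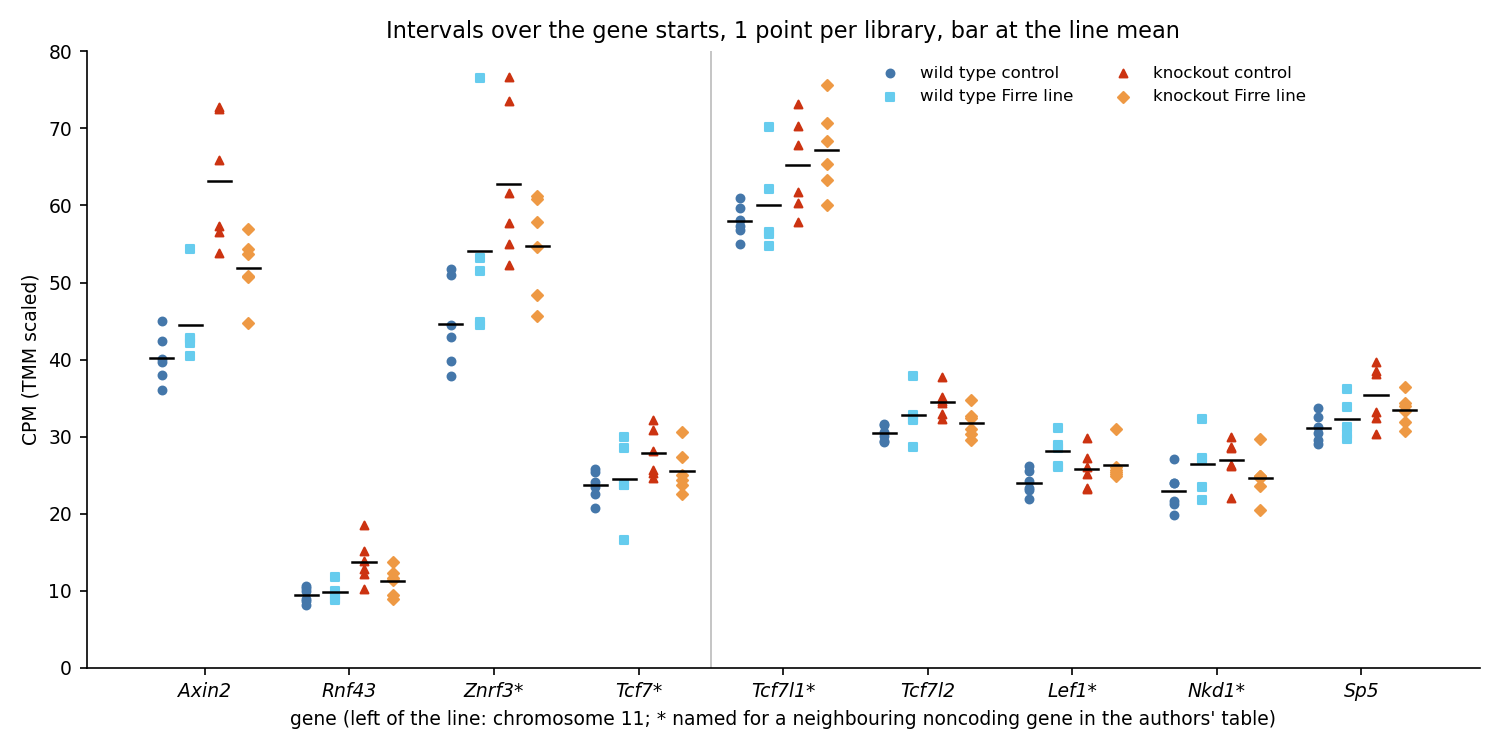
CPM (vertical axis, from 0) of the interval over a start of each gene (horizontal axis; for Axin2 a start inside the RefSeq gene bounds) in the 4 lines, with 1 point per library and a bar at the mean. At Axin2 the KO control runs from 53.8 to 72.7 CPM and the WT control from 36.1 to 45.0 CPM, while at Sp5, Lef1 and Nkd1 the lines overlap.

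The calls between the control lines differed in how firmly they held. The 5 calls on chromosome 11 were made in each of the 23 fits that left out 1 library. The 3 calls elsewhere were not: the Tcf7l2 interval 23212 bp upstream ended in 10 of these fits, that 115782 bp upstream in 8 and the Tcf7l1 interval in 9. All 3 ended together without the KO control of 0, 90 or 120 min, or without the WT control of 0 or 30 min. The count of members called was 5 without the KO control of 90 or of 120 min. All 3 also ended without the KO control libraries of 30 and 90 min, which an earlier look at these data found apart. With the share of counts in promoter peaks as a covariate, 1 of the 8 calls was made, the Axin2 interval 10315 bp upstream at 0.51 ± 0.11, while the Axin2 promoter estimate went to 0.30 ± 0.09, that of the Rnf43 promoter to 0.18 ± 0.16 and that of the Znrf3 intron to 0.42 ± 0.17. The call at the RefSeq 5′ end of Znrf3 also ended with this covariate, where its estimate was 0.04 ± 0.09. The share itself differed between the lines (above), and its part in the difference was not tested.

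The knockout and wild type backgrounds were also compared between the Firre lines, in libraries that the first comparison does not use. Of 80 members 1 was called, against 1.16% of all peaks and 3.49% of those on chromosome 11. It was the Znrf3 interval in intron 1, higher in the KO Firre line by 0.56 ± 0.11, 1.47-fold, without overlap (edgeR adjusted p = 0.00255). The call ended without the WT Firre library of 30 min, the lowest of its line. The Axin2 promoter was at 0.23 ± 0.09 (edgeR adjusted p = 0.189), the Axin2 interval 10315 bp upstream at 0.07 ± 0.09 and the Rnf43 promoter at 0.25 ± 0.11, none of which passed. Across both comparisons, 21 of 30 members on chromosome 11 had estimates above 0 in both, 70.0% against 51.6% of all tested peaks there, and 10 of 50 members elsewhere, 20% against 26.4%.

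**Figure D5:**
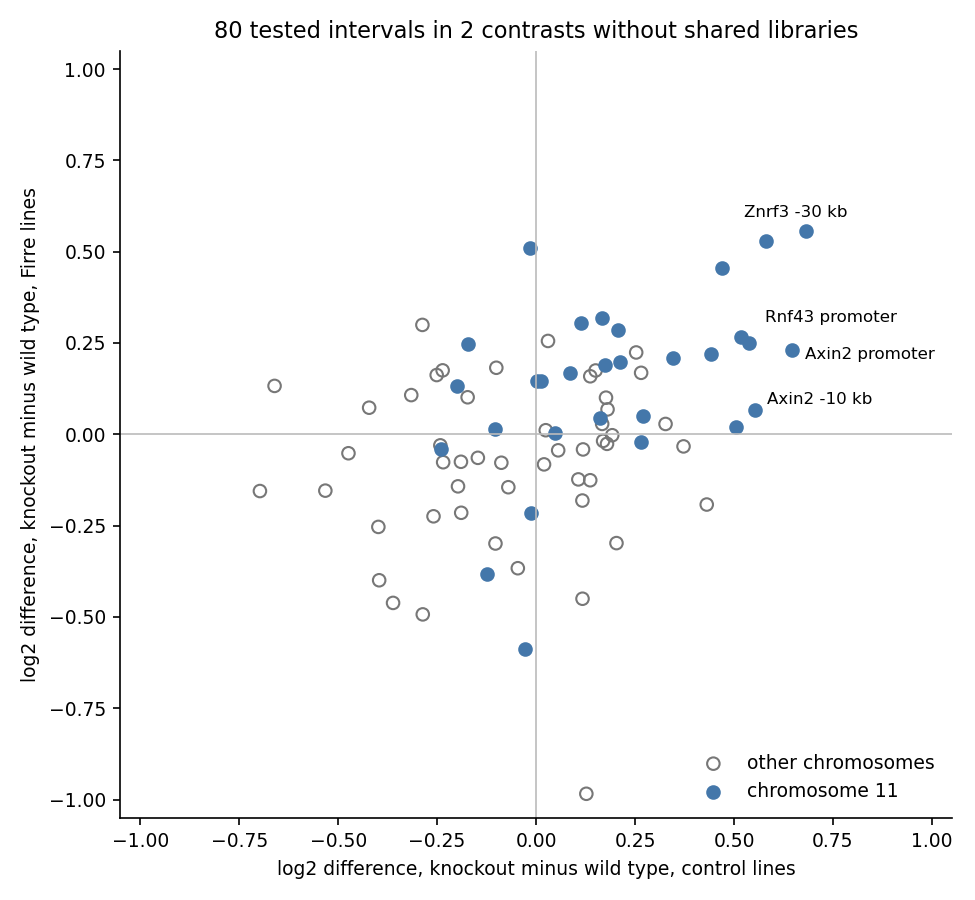
Log2 difference of knockout against wild type for the 80 tested intervals between the control lines (horizontal axis) and between the Firre lines (vertical axis), which share no library. Of the 30 chromosome 11 intervals (filled) 21 lie in the upper right quadrant, and the Znrf3 interval, at 0.68 and 0.56, is the highest on both axes.

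Each transgenic line was compared with its control within each background, over all times and with the 0 min libraries included. In the knockout background 1 of 80 members was called, the Axin2 interval 10315 bp upstream, against 0.913% of all peaks (0.344% as lower). It was lower in the KO Firre line in all 6 libraries, by 0.38 ± 0.08 on the log2 scale relative to the KO control (edgeR adjusted p = 0.00437). The KO Firre line was already lower at 0 min, before induction, with 27.9 against 37.6 CPM in 1 library each. This is thus a difference between lines, and the part of the induction in it was not tested. The median of all chromosome 11 peaks in this comparison was -0.08. The Axin2 promoter (-0.28 ± 0.08, edgeR adjusted p = 0.0647) and the interval 32322 bp upstream (-0.36 ± 0.10, edgeR adjusted p = 0.0538) did not pass, nor did the Rnf43 promoter (-0.28 ± 0.10) or the Znrf3 interval (-0.14 ± 0.10). The call was made in each fit that left out 1 library and ended without the KO control of 30 and 90 min, where the estimate was -0.33 ± 0.09. This comparison and the one between the control lines share the KO control, so a high value there moves both.

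In the wild type background 0 of 80 members were called by edgeR and 0 by DESeq2, against 0.0818% of all peaks called by edgeR. An unadjusted edgeR p under 0.05 was found for 7 members, 8.75%, and for 7.55% of all tested peaks. The Axin2 interval 10315 bp upstream was at 0.11 ± 0.09, with a 95% interval from -0.07 to 0.28, and the Axin2 promoter at 0.14 ± 0.09. Whether the transgenic line contrast differed between the 2 backgrounds was tested directly, with 1 of 80 members called against 0.266% of all peaks. It was the Axin2 interval 10315 bp upstream, at -0.49 ± 0.12 (edgeR adjusted p = 0.0438). The KO control enters this test too, so the call is not independent of the earlier ones of this interval. This call ended in 18 of the 23 fits without 1 library (all but those without the KO control of 60 or 150 min, the KO Firre line of 60 min or the WT Firre line of 90 or 150 min), and 0 members were called without the 0 min libraries.

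Over time after doxycycline no member was called, in a fit with a single 0 min library per line. This does not show that members did not change, since the estimates of the Firre response ran from -1.08 to 1.36 on the log2 scale. For the Firre response, the mean of 30 to 150 min relative to 0 min, edgeR and DESeq2 called 0 of 80 members, and 0% of all peaks were called. By edgeR 3 members had an unadjusted p under 0.05, 3.75% against 3.77% of all tested peaks. For the mean response of the control lines both tools again called 0 members, and 0% of all peaks were called. Here 4 members had an unadjusted edgeR p under 0.05, 5.0% against 5.26% of all tested peaks. At the Axin2 promoter the Firre response was -0.02 ± 0.17, with a 95% interval from -0.35 to 0.31, and the response of the control lines 0.18 ± 0.12. At the Znrf3 interval they were 0.29 ± 0.20 and -0.23 ± 0.14. The KO control was already above the WT control before the drug, with 56.6 against 36.1 CPM at 0 min at the Axin2 promoter and 37.6 against 26.4 CPM at the interval 10315 bp upstream, 1 library each.

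Levels were compared between genes per kb of interval, over all 23 libraries and among the intervals named here only, and some unnamed Tcf7l2 intervals lie between them. The RefSeq 5′ end of Znrf3, at 28.2 ± 5.64 CPM per kb (SD), and the Axin2 promoter, at 26.1 ± 5.43, were highest. Their order was not the same in every line, since in the KO control they held 62.8 and 63.2 CPM in intervals of 1914 and 1922 bp. They were followed by the 5′ ends of Tcf7l1 at 22.5 ± 2.23 and of Nkd1 at 16.6 ± 2.17, and the distal Tcf7l2 interval in Vti1a at 16.3 ± 1.84. The Tcf7l2 interval 23212 bp upstream was at 15.4 ± 2.37 and the Tcf7l1 interval 6735 bp from a TSS at 14.5 ± 1.46. The Tcf7 5′ end, at 11.6 ± 1.62, and the promoters of Rnf43, at 10.7 ± 2.40, and Tcf7l2, at 10.1 ± 0.78, were lower, close to Sp5 at 10.1 ± 0.91. Lower still were the Znrf3 intron at 9.65 ± 2.70, the Axin2 interval 10315 bp upstream at 9.39 ± 1.60 and the Lef1 5′ end at 8.75 ± 0.84. Neighbours in this order differed by less than the larger of their SDs, except the Tcf7l1 5′ end above Nkd1 and the Tcf7l1 interval above the Tcf7 5′ end. The median over promoter peaks was 8.28 CPM per kb.

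Over the 23 libraries, the promoter peaks whose log2(CPM + 1) moved most like that of the Axin2 promoter were those of Sptbn1, Gdf9, Castor1, Tob1 and Rtn4, with Pearson correlations of 0.963, 0.961, 0.960, 0.955 and 0.952 among 22020 candidates. All 5 lie on chromosome 11, and all values come from the same libraries and share their depth and promoter share. For Tcf7l1, whose member at a TSS holds few counts, the 5 highest correlations were 0.701 to 0.713, on 5 other chromosomes (Wdr18, Gm12531, Tep1, Tex264 and Pex6). That member did not pass the filter on low counts. How high the largest of so many correlations run by chance was not tested, so these 5 genes are not shown to be alike with it.

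Among 91 further Wnt pathway genes, 71 had a tested promoter interval, 79 in all. Between the control lines 13 were higher and 1 was lower, 17.7% in all, where 16.4% of all tested promoter peaks were higher and 1.38% lower. The list was thus called as often as promoters in general. On chromosome 11 the higher ones were Notum, a secreted enzyme that inactivates Wnt ligands (0.50 ± 0.08), the ligand gene Wnt9b (0.35 ± 0.09) and the receptor gene Fzd2 (0.31 ± 0.08), 3 of 7 against 43.1% of promoter peaks there. Elsewhere they were the receptor genes Fzd4 and Fzd5, the ligand gene Wnt8a, the inhibitor genes Apcdd1 and Dkk1, Dvl3, Csnk1a1 and Btrc of signal transduction and the destruction complex, and the nuclear cofactor genes Tle4 and Pygo2, at 0.26 to 0.45. Gsk3a, a gene for the kinase that CHIR99021 blocks, had a weak promoter interval that fell by 0.82 ± 0.24 in log2 units (edgeR adjusted p = 0.0179).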

How the data were processed

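The authors deposited a table of raw counts for each library in each consensus peak, with an annotation table of positions, features and the nearest TSS. MACS2 2.2.7.1, featureCounts and the mm10 build are named per the submitters' processing notes. What aligner, duplicate handling, read shift and annotation were used is not given in the sources used here. Of 24 libraries described in the labels, 23 were analysed. No label names separate cultures, so p-values reflect only variation among the libraries of a line, which may be technical.

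Counts were tested with edgeR 4.0.16 (quasi-likelihood F test, robust) under R 4.3.3, with TMM scaling and filterByExpr at a minimum of 10 counts, which kept 129515 peaks. Line contrasts came from a fit of line and time (14 residual degrees of freedom), and time responses from a fit that added transgene by time (9). Benjamini-Hochberg adjustment covered all tested peaks, and 7 comparisons were made. SE was derived from the F statistic, and 95% intervals use the normal approximation. DESeq2 1.42.0, other scalings, filters and covariates and left-out libraries were the alternatives. The fits were tested on simulated counts.

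A promoter interval had the promoter annotation or lay within 1000 bp of a TSS. Named with values were, for each member gene, the strongest promoter and distal intervals and every called interval, and the 5 RefSeq 5′ end intervals were added after the data were seen. RefSeq sequences and gene positions are of GRCm38.p6, the assembly of mm10. The members, lists and tests were chosen with earlier results of these data known. At the median depth the limit that 0 counts allow is 0.394 CPM (3 counts). This is a limit of counting error alone, and no molecular identifiers entered the calculation.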

Additional observations from a re-analysis of the deposited data

Results flagged for a closer look

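Within a line, 5 of 92 groups of libraries (23 described intervals in 4 lines) held a library apart from the rest of its line, where chance gives about 1 in 20. In the WT Firre line, the 150 min library was high at the Axin2 promoter (54.4 CPM) and at the RefSeq 5′ end of Znrf3 (76.5 CPM). That library also had the highest share of counts in promoter peaks, 44.3%, and the part of this share in both values was not tested. In the same line the 30 min library was low at the Znrf3 interval of intron 1 (7.57 CPM). The 150 min library of the WT control was high at the Tcf7 promoter interval (10.6 CPM), and the 120 min library of the KO Firre line was high at the RefSeq 5′ end of Lef1 (30.9 CPM).

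The Axin2 interval 10315 bp upstream differed between backgrounds in how the transgenic line compared with its control, by -0.49 on the log2 scale in the test of the difference itself (edgeR adjusted p = 0.0438). The call was not firm, since it ended in 18 of the 23 fits without 1 library.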

How the results depend on the processing

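Between the control lines 8 members were called. The count was 5 with DESeq2, with loess offsets, with a filter at a mean of 50 counts, without the KO control of 30 and 90 min and without the 0 min libraries, 1 when promoter share was a covariate, and 5 to 9 over the fits that left out 1 library. Between the Firre lines the 1 call became 2 under the stricter filter and 0 to 2 with 1 library left out (0 without the WT Firre line at 30 min, and 2 without its 150 min library or the 60 min library of the KO Firre line). For the KO Firre line against its control the 1 call became 2 with total counts as library size, 3 with loess offsets, 3 under the stricter filter and 3 with the covariate, 0 without the KO control of 30 and 90 min, and 1 to 4 with 1 library left out (4 without the 150 min library of the KO control, 3 without that of the WT Firre line, and 2 without the KO control of 60 min, the KO Firre line of 30 min, the WT control of 60 or 90 min, or the WT Firre line of 90 min). The Axin2 promoter was gained in those 4 settings over all libraries, and the Axin2 interval 32322 bp upstream in all of them but total counts. For the difference between backgrounds the 1 call became 2 under the stricter filter, and 0 with no filter, with the covariate, without the 0 min libraries and without the KO control of 30 and 90 min, and 0 to 2 with 1 library left out. The other 3 comparisons did not move from their counts, and the RefSeq 5′ end intervals added 1 call, for 9 of 85 between the control lines. Refits were also counted, each being 1 log2 difference of a named interval under 1 alternative or with 1 library left out. The differences taken were the calls, and the Axin2 promoter and the interval 32322 bp upstream in the KO Firre line against its control. Of these refits, 357 kept direction and side of the threshold, 73 lost the call, 16 gained one and 0 reversed. Total counts as library size moved the median of all peaks between the control lines from -0.02 to -0.12. A promoter window of 3000 bp gave 8 member promoters in place of 5. Except where fewer features or libraries entered, the cause of a change was not tested. Depth limits the weak intervals: the Tcf7l2 interval 115782 bp upstream held a mean of 18.2 counts.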

Other observations

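Dkk1, which encodes a secreted Wnt antagonist and lies on chromosome 19, had a promoter interval that differed in the same comparisons as the Axin2 interval 10315 bp upstream. It measured 10.3 ± 1.04 CPM in the WT control, 13.9 ± 0.87 in the KO control and 10.8 ± 0.93 in the KO Firre line (SD, n = 6 each), and 12.3 ± 1.57 in the WT Firre line (n = 5). The log2 difference was 0.43 ± 0.10 between the control lines (edgeR adjusted p = 0.00166), -0.36 ± 0.10 for the KO Firre line against its control (edgeR adjusted p = 0.0399) and -0.61 ± 0.14 for the difference between backgrounds (edgeR adjusted p = 0.0286). It was the only 1 of the 79 promoter intervals of the further Wnt genes called in the last 2 comparisons by edgeR, 1.27% in each. Of all tested promoter peaks, 0.527% were called for the KO Firre line against its control and 0.322% for the difference between backgrounds. These comparisons share the KO control, and Dkk1 was singled out after its values were seen. Whether its calls hold with 1 library left out or under the alternatives is not given here.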
